A study of Gallus gallus with 6 samples.

Results

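Broad H3K27ac domains are here long stretches of chromatin called as wide peaks of acetylation of lysine 27 on histone H3. In chick posterior pre-placodal ectoderm cultured without or with FGF2, 1625 such domains were found, covering 10.2 Mb. The members were selected on peak width: peaks called by MACS2 with a width of at least 4000 bp on chromosomes 1 to 28 and Z were taken from the control and the FGF2 list, and overlapping ones were joined. Of 35879 control peaks used, 1087 reached this width (3.03%), and of 23911 FGF2 peaks, 997 did (4.17%). Of the domains, 643 were broad in control only (39.6%, 95% Wilson confidence interval 37.2 to 42.0%), 563 in FGF2 only (34.6%, 32.4 to 37.0%) and 419 in both (25.8%, 23.7 to 27.97%). These numbers and widths follow from the selection and are a description, with no test.

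Posterior pre-placodal region (pPPR) tissue was dissected from chick embryos at stage HH6, before somites form, and cultured for 6 h in DMEM alone (control) or in DMEM with 0.25 ng/µl FGF2. Chromatin pooled from around 100 tissues was immunoprecipitated for H3K27ac or H3K27me3. It was sequenced after linear amplification of the DNA (nano-ChIP-seq, made for small numbers of cells), beside an input library. With 1 library per mark in either condition, differences between conditions describe these libraries and have no replicate check. In the source labels the FGF2-treated H3K27me3 and input libraries carry other FGF names than FGF2, whereas their titles and culture conditions give FGF2, which is used here. The lists hold positions only, without peak heights, and read depth is unknown.

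H3K27ac is laid down by acetyltransferases such as p300 and CBP and marks active promoters and enhancers. Long stretches of it are often found around genes that define a cell's identity or that are transcribed at a high rate, where several regulatory elements lie close together. H3K27me3 occupies the same lysine, is laid down by Polycomb repressive complexes and is associated with silent genes. FGF signalling acts on this ectoderm to induce otic-epibranchial progenitors (OEPs), the precursors of the inner ear and the epibranchial ganglia.

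The 2 peak lists differ in a way that touches each class. The smallest gap between neighbouring control peaks was 973 bp and the smallest gap between FGF2 peaks was 1145 bp, so FGF2 peaks had been linked across larger gaps. In control, 1882 gaps were smaller than any gap in the FGF2 list. When control peaks were joined across gaps of up to 1144 bp, 1008 domains were broad in control only, 454 in FGF2 only and 519 in both. Of the 563 FGF2-only domains, 109 (19.4%) then became broad in both. This joining was chosen after the gaps had been seen. Values under it are given below for class numbers, cover by the other condition, microchromosome shares and the AP1 windows. Homer H3K27ac and H3K27me3 cover kept their direction under it, with FGF2 minus control Homer cover in FGF2-only domains at 8.37 percentage points in place of 7.31. Widths, edges, flanks, spacing, values for single chromosomes, enhancer density and AP1 site density are given without it, so the unequal linking may affect them.

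Domains broad in both conditions were the widest. Their median width was 7565 bp (quartiles 5961 and 10435 bp), against 4841 bp (4332 and 5904 bp) in control only and 5070 bp (4450 and 6160 bp) in FGF2 only. A domain broad in both is the joined span of at least 1 peak from each condition, so its width is expected to exceed that of a single peak. At 10 kb or more there were 111 domains broad in both, 12 in FGF2 only and 4 in control only. The threshold cut through a continuous distribution: the widest peaks left out were 3999 bp in either list, and the narrowest included were 4000 bp in control and 4001 bp in FGF2. In control, 72 peaks of 3900 to 3999 bp and 73 of 4000 to 4099 bp lay on either side of it, and in FGF2 59 and 64 did.

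**Figure D1:**
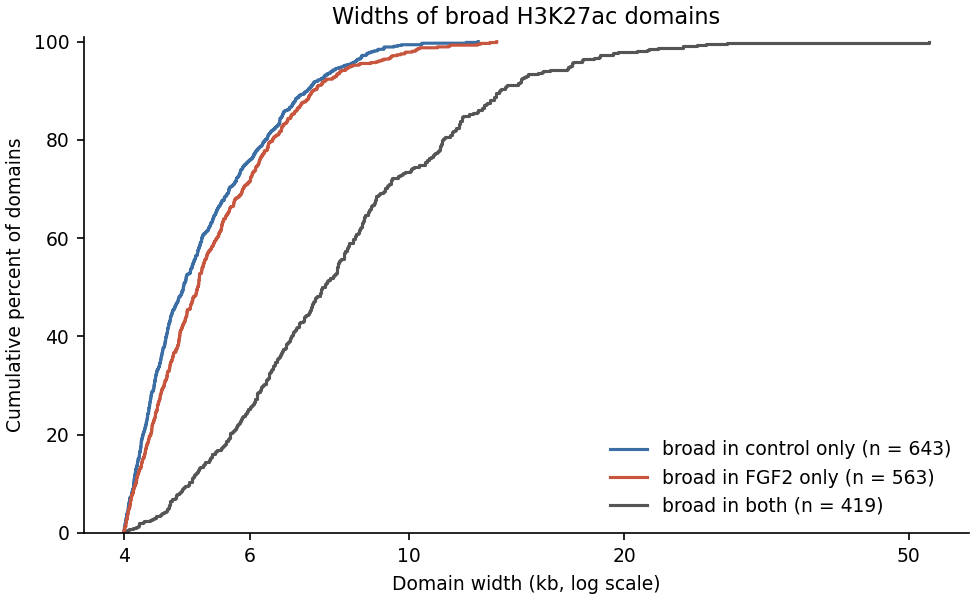
Cumulative percent of domains (y axis) against domain width in kb on a log scale (x axis), with 1 line for each of the 3 classes. The lines of the control-only and FGF2-only domains run close together, with medians of 4841 and 5070 bp, and the domains broad in both lie to the right, with a median of 7565 bp and a maximum of 53287 bp.

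Few domains of 1 condition were free of acetylation in the other. Of the 643 control-only domains, 590 overlapped a shorter FGF2 peak (91.8%, 89.4 to 93.6%), and of the 563 FGF2-only domains, 528 overlapped a shorter control peak (93.8%, 91.5 to 95.5%). For peaks under 4000 bp the share that overlapped the other condition was 41.0% in control and 59.8% in FGF2. The share rose with width without a step at the threshold: in control it was 27.2% for peaks under 500 bp, 50.3% at 1000 to 1999 bp, 83.4% at 3000 to 3999 bp and 93.5% at 4000 to 5999 bp. In FGF2 these shares were 45.5%, 64.2%, 92.7% and 95.1%. A wider peak has more length over which to meet another peak, and no correction was made for this.

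A median of 43.3% (quartiles 24.5 and 61.7%) of the length of a control-only domain lay within FGF2 peaks, and 48.5% (28.3 and 66.1%) of an FGF2-only domain lay within control peaks. With control peaks joined at the FGF2 gap these medians were 39.0% and 46.2%. Such domains were thus mostly shorter or interrupted in the other condition. A stretch unbroken in FGF2 was covered by at least 2 separate control peaks in 358 of 563 domains (63.6%, 59.5 to 67.5%), whereas 245 of 643 control-only domains (38.1%, 34.4 to 41.9%) held at least 2 FGF2 peaks. After control peaks were joined across gaps of up to 1144 bp, these shares were 49.8% (45.2 to 54.4%) of 454 FGF2-only and 39.3% (36.3 to 42.3%) of 1008 control-only domains, so the difference was smaller. The control list still held more peaks, 33997 after the joining against 23911 in FGF2, which was not allowed for. In 151 control-only and 139 FGF2-only domains the widest peak of the other condition measured 3000 to 3999 bp, just short of the width required.

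**Figure D2:**
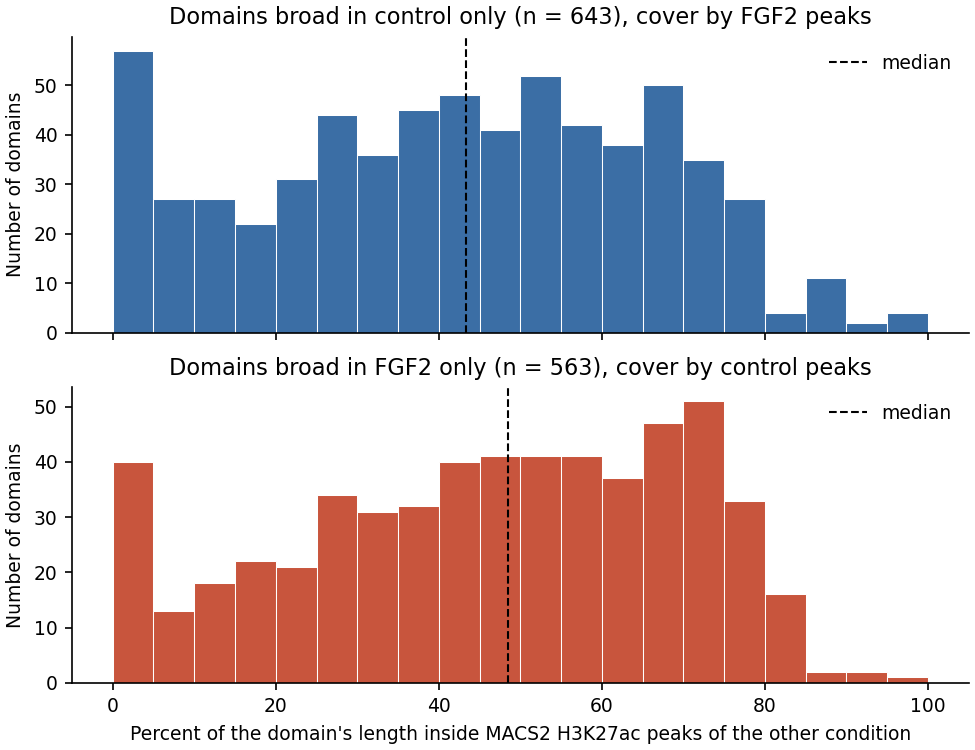
Number of domains (y axis) by the percent of domain length inside MACS2 H3K27ac peaks of the other condition (x axis, bins of 5 percentage points), for control-only domains (top) and FGF2-only domains (bottom), with dashed lines at the medians. Values spread over the whole axis around medians of 43.3% and 48.5%, with a separate group of domains near 0.

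A small number of domains had no MACS2 peak of the other condition at all. There were 53 of these in control (8.24%, 6.36 to 10.6%) and 35 in FGF2 (6.22%, 4.50 to 8.52%). They reached 7017 bp in control and 7569 bp in FGF2. Homer, the second peak caller, placed an FGF2 peak in 24 of the 53 control domains and a control peak in 9 of the 35 FGF2 domains, so the absence of the mark was not shared by both callers in these. The widest 3 of each kind were chosen after their values had been seen. In control they lay at chr3:53593440-53600456 (7017 bp), chr24:2616299-2623246 (6948 bp) and chr26:3370398-3377061 (6664 bp). In FGF2 they lay at chr3:67279504-67287072 (7569 bp), chr5:52363170-52370619 (7450 bp) and chr4:52870730-52877812 (7083 bp). Only the last of these 6 held no Homer H3K27ac peak of the other condition. All coordinates are galGal4, counted from 1, and genes are named only where the study's own browser views place them, because no annotation of this build was used here.

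Where 1 peak of each condition made up a domain broad in both, its borders were often placed at nearly the same position. This was the case for 210 of the 419 domains, in which the median distance between corresponding edges was 177 bp (quartiles 35.8 and 756 bp). Of the 420 edges, 215 (51.2%) lay within 200 bp of each other. Median widths were 5716 bp in control and 5393 bp in FGF2. The control peak was wider in 127 domains, the FGF2 peak in 82, and 1 pair had equal widths. Across these domains, which share 2 libraries and were all required to be wide, the widths of the 2 peaks had a Pearson r of 0.82 on the log2 scale and a Spearman rho of 0.70.

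The widest domain was broad in both and lay on chromosome 17 at chr17:5584847-5638133, spanning 53287 bp. It consisted of 3 control peaks of 20236, 12639 and 17887 bp and 5 FGF2 peaks of 7790, 1542, 8244, 20788 and 8483 bp. Control peaks covered 95.3% and FGF2 peaks 87.9% of it. Homer placed 15 H3K27ac peaks in it in control and 15 with FGF2, neither condition had an H3K27me3 peak, and it held 12 putative enhancers in either condition, more than any other domain. Acetylation along it was thus called nearly to the same extent in both libraries.

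The next widest domains broad in both lay at chr17:7672428-7700260 (27833 bp), chr5:13532517-13558552 (26036 bp), chr3:41295290-41320546 (25257 bp) and chr4:1054807-1078994 (24188 bp). In the first of these, 6 control peaks of at most 6428 bp stood against 2 FGF2 peaks of 9653 and 14542 bp. In the domain on chromosome 5, 5 control peaks included 1 of 13754 bp, and 2 FGF2 peaks included 1 of 21059 bp. These 4 domains held 7 to 9 Homer H3K27ac peaks in control and 8 or 9 with FGF2. Their cover by control peaks ran from 72.2% to 82.8% and by FGF2 peaks from 84.7% to 94.99%, and in each of them FGF2 cover was the higher.

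The widest FGF2-only domain was a single FGF2 peak of 13277 bp at chr13:16708015-16721291. Control had 3 peaks there, of 1636, 1126 and 474 bp, covering 24.4% of its length. It held 1 Homer H3K27ac peak in control and 4 with FGF2, and 0 and 3 putative enhancers. In the next 4, at chr26:2477652-2490637 (12986 bp), chr14:3217885-3230484 (12600 bp), chr9:19089757-19102239 (12483 bp) and chr27:3003701-3015133 (11433 bp), the control list held 4 or 5 peaks that covered 44.9% to 70.4% of the length. In these 4, 3 to 5 Homer peaks were called in control and 3 or 4 with FGF2, so Homer did not separate the conditions there.

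The widest control-only domain measured 12511 bp at chr26:5140557-5153067, where FGF2 had 3 peaks of 2603, 3224 and 2974 bp that covered 70.4% of it. The second and the fourth widest were neighbours on chromosome 23, at chr23:3905545-3917580 (12036 bp) and chr23:3918669-3929085 (10417 bp). The gap between them was 1088 bp, which is above the smallest control gap and below the smallest FGF2 gap. FGF2 peaks covered 27.05% of the first and 6.09% of the second, and Homer called 4 and 3 peaks there in control and 2 and 1 with FGF2. The remaining pair, at chr26:4017783-4028220 (10438 bp) and chr19:8167128-8176894 (9767 bp), had 41.5% and 50.7% of their length in FGF2 peaks and equal numbers of Homer peaks in the 2 conditions, 3 and 2.

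Homer peaks are 751 bp wide and mark local maxima, so they show how acetylation is arranged within a domain. They come from the same H3K27ac libraries as the widths and are no independent support for the classes. Control Homer peaks covered 21.3% of the length of control-only domains and FGF2 Homer peaks 17.2%. In FGF2-only domains these values were 16.6% and 24.0%, and in domains broad in both they were 21.8% and 22.2%. Homer cover was higher in control in 324 and higher in FGF2 in 162 of the 643 control-only domains. It was higher in FGF2 in 343 and higher in control in 94 of the 563 FGF2-only domains. Along the domain these maxima lay towards the borders: control Homer peaks covered 23.6% of the outer 25% of the width on each side and 19.1% of the central 50% in control-only domains, and FGF2 Homer peaks covered 25.8% and 22.1% in FGF2-only domains. In domains broad in both, the outer and the central parts hardly differed, at 21.8% and 21.9% in control and 21.9% and 22.4% in FGF2. Borders of domains and Homer peaks come from the same libraries. How far the drawing of borders sets the placement of Homer peaks along a domain was not tested.

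**Figure D3:**
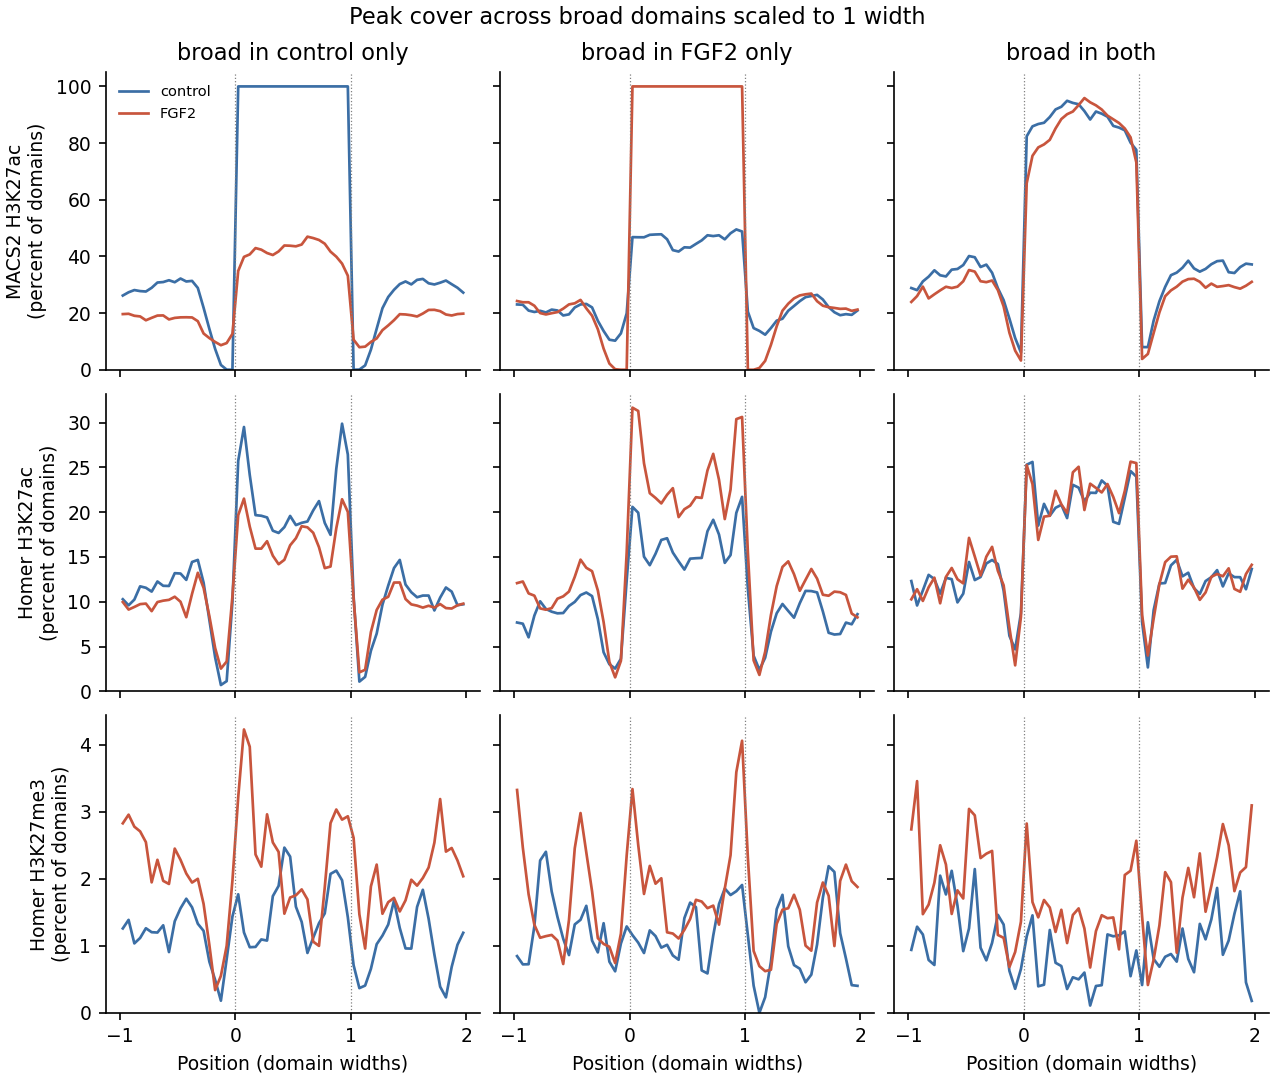
Percent of domains covered by MACS2 H3K27ac, Homer H3K27ac and Homer H3K27me3 peaks (rows, y axes) at each position along domains scaled to 1 width (x axis, in domain widths, with dotted lines at the domain's borders), for the 3 classes (columns). The own-condition MACS2 cover of 100% is set by the selection, cover by the other condition stays between its flanks and this level, and Homer H3K27ac cover in domains of 1 condition is higher in the outer parts, at 23.6% in control-only and 25.8% in FGF2-only domains, than in the central part.

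All 4 plotted H3K27ac lists dipped just outside the borders. By construction a further MACS2 peak of the same list cannot lie closer than the smallest gap, and the dip in the other lists was not tested. At 2 to 5 kb from the borders, past the smallest gap of either list, 35.2% of the sequence around domains broad in both lay in control peaks and 30.8% in FGF2 peaks. Around control-only domains these values were 30.2% and 19.4%, and around FGF2-only domains 21.9% and 22.4%. Domains broad in both thus had the most MACS2 acetylation nearby of the 3 classes in either list.

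The study defined putative enhancers as stretches of limited length between neighbouring H3K27ac peaks, without H3K27me3. The entries of the lists used here were up to 5000 bp in control and 4999 bp in FGF2, and 7.10% of entries in control and 12.3% with FGF2 overlapped H3K27me3 that Homer had called in that condition. These entries were densest in domains broad in both, although for the FGF2 list the interval of the FGF2-only domains reached into theirs. There were 2.02 control enhancers per 10 kb (exact Poisson 95% interval 1.88 to 2.17) and 2.10 FGF2 enhancers (1.96 to 2.26) in these. Control-only domains held 1.505 control enhancers per 10 kb (1.38 to 1.64) and 1.14 FGF2 enhancers (1.03 to 1.26). FGF2-only domains held 1.12 (1.01 to 1.25) and 1.85 (1.70 to 2.01). Homer H3K27ac peaks were not densest in domains broad in both. Control peaks numbered 2.967 per 10 kb in these and 2.975 in control-only domains. FGF2 peaks numbered 3.024 in domains broad in both and 3.304 in FGF2-only domains. An enhancer entry needs space between 2 peaks, so the greater width of domains broad in both may raise its density, which was not tested. The FGF2 enhancer list is the longer one. As shares of each list, control-only domains held 5.24% of the control and 3.53% of the FGF2 enhancers (a ratio of 1.48), and FGF2-only domains held 3.56% and 5.20% (a ratio of 1.46), so the 2 classes favoured their own condition to a like extent. At least 1 FGF2 enhancer was centred in 427 of 563 FGF2-only domains (75.8%), and at least 1 control enhancer in 259 of them (46.0%). In control-only domains, 399 of 643 (62.1%) held a control enhancer and 309 (48.1%) an FGF2 enhancer.

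Of all putative enhancers used, 1601 of 9815 in control (16.3%, 15.6 to 17.1%) and 1733 of 11035 with FGF2 (15.7%, 15.0 to 16.4%) were centred in a broad domain. In peaks under 4000 bp the density was 0.35 to 0.43 per 10 kb. Such an enhancer is the space between 2 Homer peaks and seldom fits into a short MACS2 peak, so the step between broad and short peaks is partly set by how the enhancers were defined. The enhancers derive from the same H3K27ac libraries as the widths, so a higher density in the domain's own condition is no independent support for the classes.

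**Figure D4:**
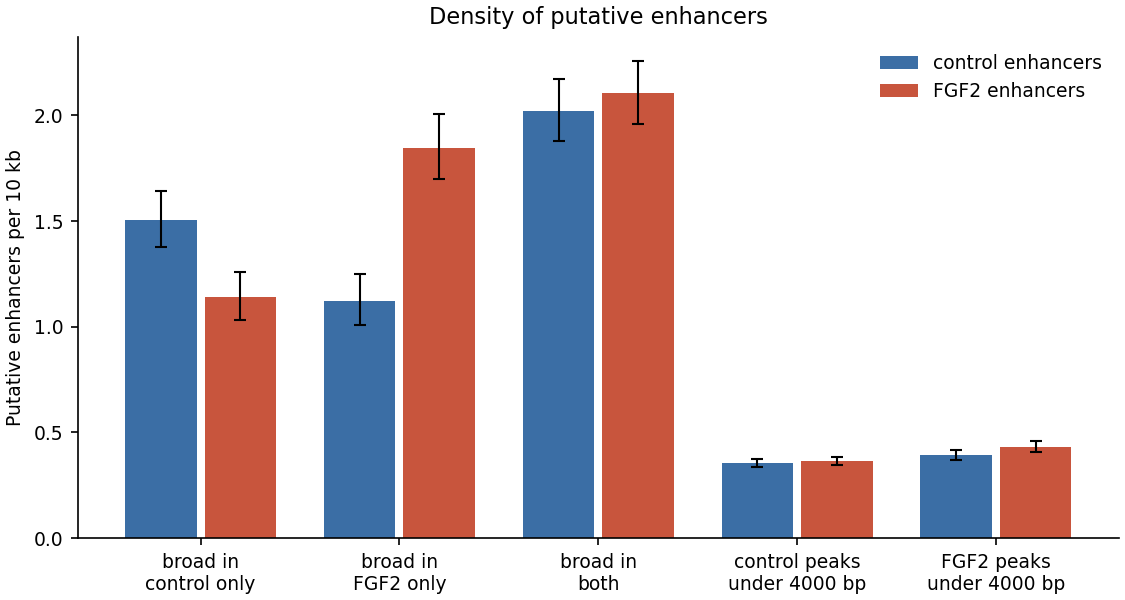
Putative enhancers per 10 kb (y axis, bars from 0) in the 3 classes of domains and in MACS2 peaks under 4000 bp (x axis), for the control and the FGF2 enhancer list. Error bars are exact Poisson 95% intervals for counting error; FGF2-only domains hold 1.12 control and 1.85 FGF2 enhancers per 10 kb, and domains broad in both hold 2.02 and 2.10.

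H3K27me3 was measured in separate libraries and was not used to choose the domains. Its peaks covered little of the length in all 3 classes. Control H3K27me3 peaks called by Homer covered 1.54% of control-only, 1.25% of FGF2-only and 0.76% of the domains broad in both, against 3.66% of the control and 2.49% of the FGF2 peaks under 4000 bp. With FGF2 the cover was 2.40%, 1.98% and 1.55%, against 4.11% and 6.27% of the shorter peaks. Domains broad in both thus had the lowest cover by Homer H3K27me3 peaks in either condition. By MACS2 H3K27me3 peaks the FGF2 cover was 2.64%, 1.42% and 1.51% in the same order, with FGF2-only domains lowest. Homer H3K27ac peaks of the same condition also covered more of the peaks under 4000 bp, 28.97% in control and 34.45% in FGF2. In control-only and FGF2-only domains these values were 21.34% and 23.95%. The part that width plays in the lower H3K27me3 cover of domains was not tested.

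Homer H3K27me3 peaks covered more of every class in FGF2 than in control. The difference was 0.85 percentage points in control-only, 0.72 in FGF2-only and 0.80 in domains broad in both. In percentage points, the added cover was thus of like size where acetylation was broad in control only and where it was broad in FGF2 only. These are called peaks, with no measure of the amount of the mark. Over all sequence used, FGF2 Homer H3K27me3 peaks covered 1.53 times the length that control peaks did, and the ratio was 1.55 in control-only, 1.58 in FGF2-only and 2.05 in domains broad in both. At the level of single domains, 53 control-only domains had an H3K27me3 peak in control only and 87 with FGF2 only, and in FGF2-only domains these numbers were 39 and 67. No H3K27me3 peak of either condition was found in 485 of 643 control-only, 439 of 563 FGF2-only and 323 of 419 domains broad in both. With MACS2 H3K27me3 peaks, the differences in cover between FGF2 and control were 2.23, 1.33 and 1.45 percentage points in the same order. Control had 921 of these peaks and FGF2 19405 in the sequence used, and call numbers this unequal leave little to compare.

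Broad domains were unevenly spread over the chick karyotype, which has a few large chromosomes and many small, gene-dense microchromosomes. Chromosomes 11 to 28, taken here as the microchromosomes, held 393 of 643 control-only domains (61.1%, 57.3 to 64.8%), 253 of 419 domains broad in both (60.4%, 55.6 to 65.0%) and 268 of 563 FGF2-only domains (47.6%, 43.5 to 51.7%). Of the peaks under 4000 bp, 38.8% in control and 36.7% in FGF2 lay there. All 3 classes were thus shifted towards microchromosomes, the FGF2-only domains less than the others, and their interval did not meet those of the other classes. After control peaks were joined across gaps of up to 1144 bp, the shares were 58.8% in control only, 59.2% in both and 46.0% in FGF2 only. Among the domains without any peak of the other condition, 25 of 53 in control (47.2%, 34.4 to 60.3%) and 7 of 35 in FGF2 (20%, 10.04 to 35.9%) lay on microchromosomes. Base composition and gene density also differ between these chromosomes, and their part in the result was not tested.

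The highest shares of broad peaks were found on chromosomes 24 and 26 in control and on chromosomes 25 and 26 in FGF2. On chromosome 24, 8.34% of control and 8.38% of FGF2 peaks were broad, on chromosome 26 8.47% and 10.7%, and on chromosome 25 5.56% and 11.1%. Chromosome Z had the smallest share in control, 1.00%, and in FGF2, 1.48%. Most of the larger chromosomes held more FGF2-only than control-only domains, with 42 and 29 on chromosome 1, 37 and 20 on chromosome 3 and 52 and 39 on chromosome 4. The opposite was found on chromosomes 6, 7 and 9, with 19 and 22, 16 and 22, and 13 and 19. It was also found on chromosome 24, with 23 and 48, on chromosome 20, with 18 and 33, and on chromosome 18, with 11 and 26. Chromosomes 22 and 25 were small chromosomes with more FGF2-only domains, 12 against 4 on each. Counts for single chromosomes were not computed again with control peaks joined at the FGF2 gap. Under that joining, 1008 domains were control only and 454 FGF2 only, so the directions given here may not hold.

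**Figure D5:**
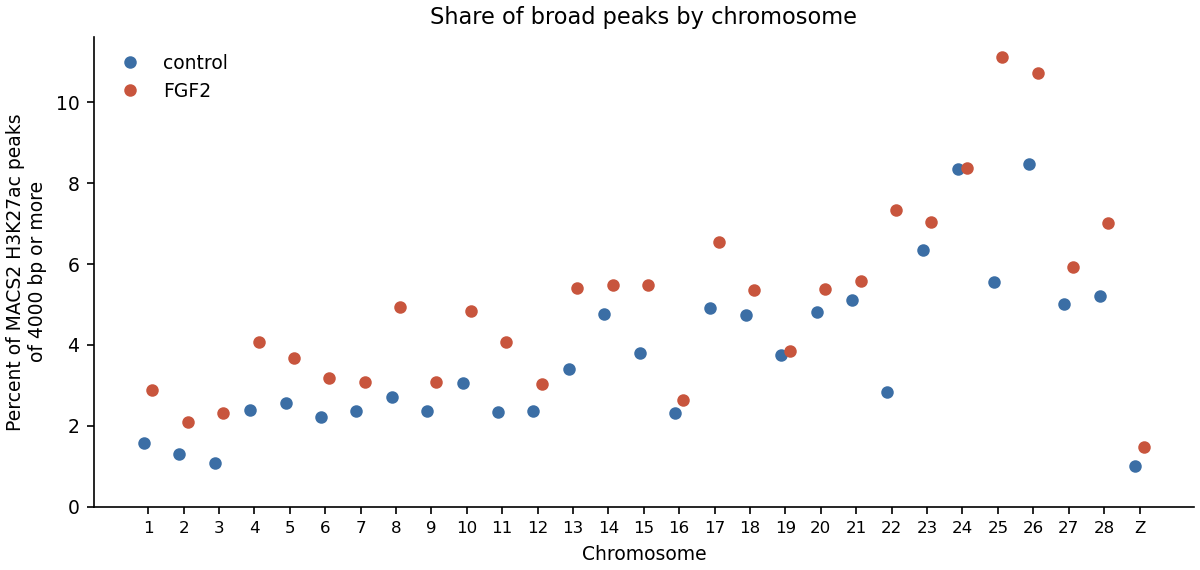
Percent of MACS2 H3K27ac peaks of at least 4000 bp (y axis) on each chromosome (x axis) in the control and the FGF2 library. Shares rise from 1.59% in control and 2.89% in FGF2 on chromosome 1 to 8.47% and 10.7% on chromosome 26, and chromosome Z lies lowest, at 1.00% and 1.48%; chromosomes 1, 2 and 3 were used below 100 Mb only.

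Some domains lay close to another domain. Spacing was not computed for shorter peaks, so the distances below have no baseline and the density of peaks on each chromosome was not allowed for. The nearest domain lay at a median distance of 13.6 kb for domains broad in both, 26.3 kb for control-only and 29.2 kb for FGF2-only domains. Another domain lay within 10 kb of 194 domains broad in both (46.4%), 209 control-only (32.5%) and 169 FGF2-only domains (30.0%). Chaining of domains less than 10 kb apart gave 68 groups of at least 3, which held 248 of the 1625 domains (15.3%). The most populous had 8 domains each and lay on chromosome 24, at chr24:1801271-1889395 (3 control only, 3 FGF2 only, 2 both) and chr24:438687-520426 (5 control only, 1 FGF2 only, 2 both). On chromosome 14, a group of 5 at chr14:4815391-4893350 was broad in both throughout, with 60699 of its 77.96 kb in domains. Of the 68 groups, 8 held a single class, so most of them mixed domains of different classes.

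Among 8 loci shown in the study's browser views, 3 held a broad domain, at Spry1, Cxcl14 and Eya2. The study also showed a view of Spry2, which was not examined here. The views of Foxi3, Pax6, Hesx1, Dlx5/6 and Gata3 held none, and the widest peak in any of these was 2846 bp, at Pax6 with FGF2. Spry1 and Cxcl14 had FGF2-only domains. The study showed these views for what its tracks hold there, so they are no independent sample of loci.

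Spry1 encodes an inhibitor of receptor tyrosine kinase signalling that is switched on by FGF and limits it in turn. Its FGF2-only domain at chr4:52759375-52766649 was 1 FGF2 peak of 7275 bp, whereas control had a single peak of 894 bp that covered 12.3% of it. Homer called 0 H3K27ac peaks there in control and 4 with FGF2, and the enhancer lists held 0 and 3. H3K27me3 went the other way: Homer and MACS2 each called 1 H3K27me3 peak in the domain in control and 0 with FGF2. Here all the lists differed between the conditions, which was seen at none of the other domains in the views examined.

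Cxcl14 encodes a secreted chemokine. It had 2 FGF2-only domains next to each other, at chr13:14646246-14651460 (5215 bp) and chr13:14652745-14657842 (5098 bp). Control had peaks of 640 and 1212 bp in the first and of 278 bp in the second, covering 27.4% and 5.45%. Homer called 3 peaks in the first domain in either condition, and 0 in control and 1 with FGF2 in the second. No H3K27me3 peak was called in either domain. Eya2 encodes a transcriptional co-activator with phosphatase activity of placode progenitors. Its domain at chr20:5912531-5927114 (14584 bp) was broad in both, with control peaks of 3593, 4137 and 5415 bp and FGF2 peaks of 10484 and 1653 bp. Homer called 4 peaks in it in either condition, the enhancer lists held 4 in control and 3 with FGF2, and MACS2 called 1 H3K27me3 peak there with FGF2 and 0 in control.

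The elements that the study cloned and tested in embryos lay beside broad domains at Spry1 and Cxcl14 and not inside them. The primers of these pairs are shown because they fix the tested elements nearest to the FGF2-only domains. The Spry1 element at chr4:52768022-52768515 (494 bp) started 1.37 kb from the Spry1 domain, within an FGF2 peak of 1521 bp, and its nearest control peak was 3.60 kb away. The Cxcl14 element at chr13:14642196-14643846 (1651 bp) lay 2.40 kb from the nearest domain, 0.011 kb from an FGF2 peak of 1739 bp and 0.58 kb from a control peak of 266 bp. Primers are written from 5′ to 3′.
Spry1 E forward primer: acgcctctctaccctcttt
Spry1 E reverse primer: gctggaagctagagccatatc
Cxcl14 E forward primer: agcctaccagttgtcctaga
Cxcl14 E reverse primer: cacagtgtattgcttggcttt

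For the Foxi3 elements the nearest domain lay 30.0 and 46.1 kb away, and for the Hesx1 element 261 kb. Foxi3 encodes a forkhead transcription factor required for otic and pharyngeal development, and Hesx1 a homeobox factor of anterior ectoderm.

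AP1 is the dimer of Fos and Jun proteins that acts downstream of MAP kinase signalling. The study found its motif enriched in enhancers of FGF2-treated over control cells. It also found that a dominant-negative Fos prevented p300 binding at a Spry1 and a Foxi3 enhancer. Neither finding was examined here, where AP1 was followed only through predicted binding sites in windows around chosen genes. In 6 such windows, together 3.69 Mb, there were 37 broad domains, of which 23 were FGF2 only, 6 control only and 8 both. FGF2-only domains thus made up 62.2% (46.1 to 75.9%) of the domains in the windows and 34.6% of all domains. Each of the 6 windows held more FGF2-only than control-only domains. The windows surround loci the study chose, Spry1, Foxi3 and Cxcl14 among them, so they are no independent sample of the genome. Once control peaks were joined across gaps of up to 1144 bp, the windows held 18 FGF2-only and 8 control-only domains and 13 broad in both, or 46.2% FGF2 only (31.6 to 61.4%) against 22.9% over all domains, and 3 of the 6 windows then held more FGF2-only than control-only domains.

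The window on chromosome 4 that holds Spry1 contained 4 domains, all FGF2 only. Beside the domain described above they were chr4:52870730-52877812 (7083 bp), chr4:52897169-52902638 (5470 bp) and chr4:52936276-52941231 (4956 bp). Control had no MACS2 peak in the first and the second of these and 1 of 277 bp in the third. None of the 4 held a Homer H3K27ac peak in control, and they held 4, 1, 2 and 1 with FGF2 from left to right. From the first to the last of them the domains spanned 182 kb, and in all 4 the mark was broad with FGF2 and hardly called in control.

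The window that holds Foxi3 contained 3 FGF2-only domains and 1 broad in both, all outside the Foxi3 view itself. The FGF2-only ones lay at chr4:85523533-85533167 (9635 bp), chr4:85552043-85558496 (6454 bp) and chr4:85560147-85565195 (5049 bp), and control peaks covered 6.83%, 11.95% and 14.5% of them. Homer called 0, 1 and 1 peaks in control and 3, 2 and 2 with FGF2. The window on chromosome 6, from chr6:16350357-17023839, held the most FGF2-only domains, 7 beside 1 control-only domain. They were 4992 to 8302 bp wide and had 17.4% to 48.4% of their length in control peaks. Over all 23 FGF2-only domains of the windows, median cover by control peaks was 28.8%, against 48.5% for FGF2-only domains as a whole. Homer called more peaks with FGF2 in 14 of the 23 (60.9%, 40.8 to 77.8%) and more in control in 1. Among all FGF2-only domains it called more with FGF2 in 277 of 563 (49.2%), which lies within that interval.

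Predicted AP1 sites themselves were not denser in the domains than around them. Of 1177 sites, 71 (6.03%, 4.81 to 7.54%) lay in a domain, 44 of them in FGF2-only domains. All domains together held 0.288 sites per kb, against 0.319 over the windows. By class there were 0.32 sites per kb in FGF2-only domains, 0.38 in control-only domains (10 sites) and 0.20 in domains broad in both. Control-only domains thus lay above the value of the windows and domains broad in both below it. No interval was computed for these densities. Shorter peaks in the windows held 0.30 per kb in control and 0.32 in FGF2. At least 1 site lay in 17 of the 23 FGF2-only, 5 of the 6 control-only and 7 of the 8 domains broad in both. The same held for 83 of 299 control and 63 of 213 FGF2 peaks under 4000 bp in the windows. Domains are longer than these peaks, and no correction was made for length. Of 270 DREiVe regions, which are stretches predicted from conserved motif arrangement, 6 lay in a domain: 2 in FGF2-only domains, 4 in domains broad in both and none in control-only ones. The windows around these regions held 16 domains (103.7 kb), of which 3 were control only (13.7 kb). Domains held 0.058 regions per kb, against 0.083 over these windows. Shorter peaks held 0.087 per kb in control and 0.11 in FGF2. The count of 0 of 270 regions allows a share of up to 1.11% taken as 3 regions, or 1.40% by the Wilson interval, and no difference between the classes was detectable with these numbers.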

How the data were processed

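H3K27ac and H3K27me3 nano-ChIP-seq libraries of pPPR explants were analysed from the interval lists that the authors deposited. Per the labels and the study's methods, reads were trimmed, mapped to galGal4 with Novoalign, and peaks were called over input by HOMER and by MACS2 in its broad mode. The deposited values are start and end positions, with no signal or count. There was 1 library per group. MACS2 H3K27ac peaks on 29 chromosomes were used, leaving out chromosomes 1, 2 and 3 from 100 Mb on, where control positions are rounded. Peaks of at least 4000 bp that shared 1 bp were joined. The domains and the loci were chosen with earlier results of these data known. Cover is the share of domain length inside a list, and enhancers were assigned by their centre. Wilson and exact Poisson 95% intervals cover counting error only and treat domains as independent. No p-value was computed. The lists named for Homer enhancers hold Homer peaks and were not used. The domains named are the 5 widest of each class, those in the browser views examined or nearest the study's cloned elements, and those with most enhancers. Others are given as chosen after seeing values or as lying in an AP1 window. The study's view of Spry2 was not examined. Alternatives covered the width, the joining of peaks, the overlap rule, the peak caller and the enhancer list. On simulated peaks, 659 of 659 planted domains received their class. Software was Python 3.11.15 with numpy 2.4.6 and scipy 1.17.1, and figures were drawn with matplotlib 3.10.9. Genes, promoters and sequences of the domains were not analysed here.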

Additional observations from a re-analysis of the deposited data

Results flagged for a closer look

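The FGF2 MACS2 list held 33 H3K27ac peaks of at least 4000 bp on sequences other than chromosomes 1 to 28 and Z, which no comparison used, whereas the control list held 0. Peaks of any width on such sequences numbered 1263 in FGF2 and 13 in control, and all 13 in control lay on chromosome W. Homer called 1283 control and 1564 FGF2 H3K27ac peaks there, so the control library was not without peaks on these sequences. These 33 have no counterpart to be classed against. A further 71 broad FGF2 peaks lay in the parts of chromosomes 1, 2 and 3 that were left out.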

How the results depend on the processing

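No paired analysis was possible because there was 1 library per condition and mark. Of 92 alternative values for 20 results, 58 stayed close to the reported value, 32 moved and 2 changed sign. Numbers of domains (control only, FGF2 only and both) depended most on the definition. They were 1263, 1042 and 864 at 3000 bp, 357, 357 and 220 at 5000 bp, and 256, 136 and 99 for the widest 1% of each list. They were 1008, 454 and 519 with control peaks joined at the FGF2 gap, 1443, 644 and 822 with both lists joined across 1500 bp, 12, 6 and 0 with Homer peaks joined across 1 kb, and 1189, 1454 and 651 with Homer peaks joined across 3 kb. FGF2-only minus control-only domains numbered -80 as reported, -221 at 3000 bp, 0 at 5000 bp, -147 with peaks joined across 1 kb, -554 and -799 with the joining at the FGF2 gap and at 1500 bp, -6 with Homer peaks at 1 kb and 265 with Homer peaks at 3 kb, the opposite direction. So which condition had more broad domains is not settled by these lists. Median cover by the other condition was 35.2% (control only) and 42.4% (FGF2 only) at 3000 bp, 47.9% and 54.7% at 5000 bp, 16.9% and 16.4% by joined Homer peaks, and 39.0% in control-only domains with control peaks joined at the FGF2 gap. The share of control-only domains on microchromosomes was 56.9% at 3000 bp. With enhancers derived again from gaps of up to 3 kb, FGF2 minus control in domains broad in both was -0.038 per 10 kb in place of 0.085. The directions of Homer H3K27ac cover, H3K27me3 cover and enhancer density in the other classes did not change under any alternative run. The joining at the FGF2 gap and at 1500 bp, and Homer peaks at 3 kb, were chosen after seeing the data. Read depth is unknown and limits what can be said of a peak that was not called.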
